A study of Mus musculus with 12 samples.

Results

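Pachytene spermatocytes (mid to late pachytene and diplotene cells) were compared with prepachytene spermatocytes (leptotene, zygotene and early pachytene cells) across the autosomal genes. The comparison took every array labelled with either population, 8 of the 12 arrays of the series, with 2 PWD and 2 B6 arrays on each side. The groups were thus PWD pachytene, B6 pachytene, PWD prepachytene and B6 prepachytene, and the other 4 arrays held spermatids of the same strains, which served only for orientation. PWD/Ph is an inbred strain of wild *M. m. musculus* origin, and C57BL/6J (B6) is a laboratory strain of mainly *M. m. domesticus* origin. The labels name no treatment or engineered allele, the mice were 8 to 10 weeks old, and 15 to 40 ng of RNA from flow-sorted cells entered each array. The design text names 2 animals for the duplicates, but a replicate number is not stated to mark an animal. The p-values of the comparison thus measure the spread between sorted samples, which may be technical, together with any difference of the change between strains. Because the study relied on sorting gates, a population can hold some cells of other stages and of the Sertoli cells that enclose germ cells. The study reported that the sorted populations were mostly, but not wholly, of the desired cell type. In a sorted sample, fewer cells of a type and less RNA per cell cannot be told apart.

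During meiotic prophase, homologous chromosomes are broken, paired and joined by the synaptonemal complex, and crossovers mature before the 2 divisions. In pachytene the spermatocyte grows, transcribes its autosomes heavily and stores many messengers for proteins that are assembled only in the spermatid, such as those of the flagellum and the acrosome. The sex chromosomes are silenced at this stage, which sets them apart from the autosomes described here.

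Levels are log2 values on the scale of the deposited table, and a change is the mean of the pachytene arrays minus that of the prepachytene arrays, so that a change of 1 on the log2 scale is a 2-fold difference. A gene was represented by its brightest probeset, and it was called higher or lower when limma, with the strain as a covariate, gave an adjusted p under 0.05 and the mean of either population exceeded a background level of 4.54 set by 67 probesets of genes of other organs. By the adjusted p alone, 17219 of 45037 probesets (38.2%) were higher, most of them at the floor, which is why the level was required. Of the 17403 autosomal genes measured, 3683 (21.2%) were called higher and 4105 (23.6%) lower in pachytene. Over the 10227 of them above the background level in either population, these shares were 36% and 40.1%. The shares over all measured genes are the background for each gene list below, and those over the genes above the background level are the stricter guide for lists whose members are nearly all expressed. Changes of at least 1 were reached by 3111 genes called higher and by 3565 called lower, and changes of at least 4 by 462 and 818 genes. The arrays of the populations did not overlap for 3110 genes (17.9%) above the background level that were higher in pachytene and for 3587 (20.6%) that were lower. Where a gene was at or below the background level on every array of its dimmer population, which held for 467 of the genes called higher and 916 of those called lower, the change is given as a lower bound against that level. For 13 genes named below (*Spef2*, *Kif6*, *Hormad2*, *Syne2*, *Nsd1*, *Tdrd1*, *Slc16a1*, *Cox15*, *Slc25a54*, *Ak3*, *Slc25a4*, *Ern1* and *H2-D1*) the dimmer mean was below it but 1 or 2 of its 4 arrays were above, so that their changes are approximate. The scale bears on small changes: the median change of autosomal genes above the background level was -0.11, and 0.28 after the arrays were centred on expressed probesets, a step that added 0.39 to every change.

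The labels were checked against markers. All 16 pachytene markers were above the background level, 12 of them were called higher and 0 lower, whereas 11 of the 12 markers of leptotene and zygotene cells were called lower and 0 higher. The mean level of 14 Sertoli markers was 4.02 to 4.49 on the pachytene arrays and 6.32 to 7.74 on the prepachytene arrays, and 9 of them were called lower, such as *Clu* (-6.12), *Ctsl* (-6.47) and *Wt1*, whose prepachytene mean of 4.60 was just above the background level. The other 5, *Sox9*, *Amh*, *Gata4*, *Fshr* and *Defb45*, were not above it in either population. That of 12 spermatogonial markers was 3.53 to 3.67 on the pachytene and 5.99 to 7.04 on the prepachytene arrays, with 7 called lower. That of 18 spermatid markers was 9.20 to 9.95 on the pachytene and 10.08 to 11.23 on the prepachytene arrays, with 3 called higher and 11 lower, such as *Prm2* (-4.30) and *Tnp2* (-5.31). On the spermatid arrays the mean level of the 18 was 12.54 to 13.43. *Prm2* and *Tnp2* were at 12.50 and 11.59 in prepachytene and at 12.30 and 11.54 in spermatids. Most of the others were dimmer in prepachytene than in spermatids. The 5 Leydig markers were below the background level, and of 11 peritubular and endothelial and 9 blood cell markers 1 each was above it. The part of Sertoli cells, spermatogonia and spermatids in the gene groups below was not tested, and their markers are given again where a group contains them.

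Genes of the flagellum were higher in pachytene. Of 78 measured genes of the axoneme and sperm tail, 57 were called higher and 6 lower, with a median change of 2.92 against -0.11 for all autosomal genes above the background level. Within this list, the radial spokes, central pair and doublet proteins stood at 31 of 35 higher and 1 lower (median 3.71), and the dynein arms and their assembly factors at 18 of 25 higher and 0 lower (median 2.93). *Rsph9* on chromosome 17, a component of the radial spoke head, reached 14.31 and 14.02 on the PWD and 13.53 and 13.35 on the B6 pachytene arrays, against 8.32, 8.66, 7.62 and 7.75 on the prepachytene arrays in the same order. The populations were separated by more than 4 log2 units on every array pair, and the change was 5.72 (standard error 0.13, adjusted p = 8.3e-07). *Spag6l*, a central pair protein, was at 13.62, 13.69, 13.19 and 12.63 in pachytene and at 8.67, 9.19, 8.48 and 8.31 in prepachytene, a change of 4.62 (standard error 0.18, adjusted p = 2.4e-06). *Dnah6*, an inner-arm dynein heavy chain, changed by 4.96, with levels of 12.11, 12.37, 11.85 and 11.48 in pachytene and 7.53, 8.54, 5.65 and 6.27 in prepachytene. The prepachytene values of *Dnah6* were higher on both PWD arrays than on both B6 arrays, whereas its pachytene values were close. *Wdr66* and *Spef2* (changes of 5.92 and 5.07), the dyneins *Dnali1* and *Dnah12* (4.44 and 4.38) and the axonemal genes *Cfap52* and *Cfap206* (4.92 and 4.17) were also called higher.

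The accessory structures of the tail had a smaller median. Of 19 genes of the outer dense fibres, fibrous sheath and mitochondrial sheath, 8 were called higher and 5 lower (median 0.49). *Odf4* was at 11.35 ± 0.07 in pachytene and 6.94 ± 0.49 in prepachytene cells (SD over the 4 arrays of both strains), a change of 4.41, and *Septin12*, which forms the annulus, changed by 3.01. *Oaz3*, the antizyme of spermatids, was at 11.51, 11.04, 10.63 and 10.64 in pachytene and at 14.32, 14.37, 12.95 and 13.06 in prepachytene. Its change was -2.72 (adjusted p = 1.9e-05). *Oaz3* is 1 of the 5 spermatid markers in this group, the spermatid markers were also lower in pachytene, and their part was not tested. All 6 genes of the whole tail list that were called lower were above the background level in spermatids.

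**Figure D1:**
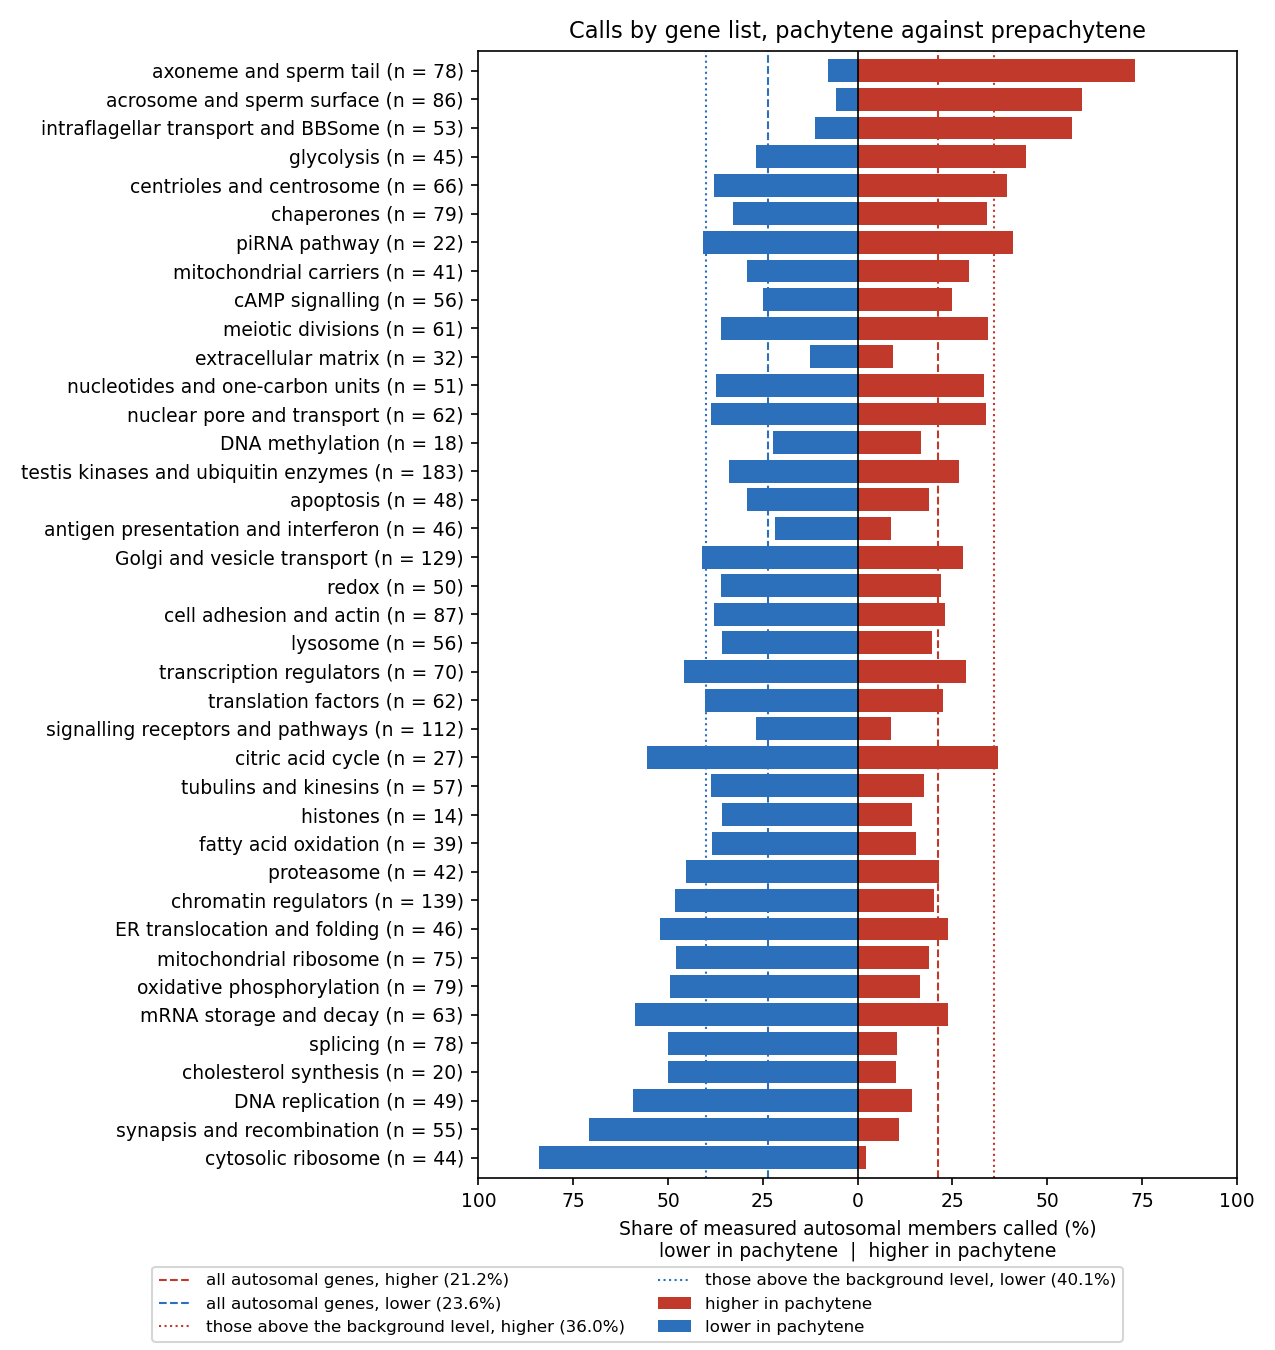
Share of the measured autosomal members of each gene list that were called higher (right, red) and lower (left, blue) in pachytene, in percent. Dashed lines mark the same shares over all autosomal genes (21.2% and 23.6%) and dotted lines those over genes above the background level (36% and 40.1%). The axoneme list reaches 73.1% higher and the cytosolic ribosome 84.1% lower.

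Trains of intraflagellar transport carry components along a growing axoneme. Among 30 measured subunits and motors, 20 were called higher and 2 lower (median 0.85), and among 23 genes of the BBSome and the transition zone 10 were higher and 4 lower (median 0.61). *Ift140*, a subunit of the retrograde complex, was at 14.17, 14.50, 14.09 and 13.77 in pachytene and at 11.58, 12.23, 11.17 and 11.08 in prepachytene (change 2.62, adjusted p = 2.4e-05). *Wdr60* of the retrograde dynein changed by 2.43, and *Kif3b*, a subunit of the anterograde kinesin, by 3.07. *Ahi1* of the transition zone had a change of 3.55, whereas its neighbour in the same structure, *B9d2*, was at 6.40 ± 0.20 in pachytene and 8.63 ± 0.30 in prepachytene (SD, 4 arrays each; change -2.22). The changes of this group were thus in the same direction as those of the axoneme but smaller.

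The centrosome gave calls in both directions, 26 of 66 genes higher (39.4%) and 25 lower (37.9%). These shares lay near the 36% and 40.1% over all autosomal genes above the background level. The sign of the median depended on the scaling (-0.03, or 0.36 after centring). *Cep164*, a protein of the distal appendages that dock the centriole for ciliogenesis, was at 11.38, 11.71, 12.25 and 12.17 in pachytene and at 6.38, 6.40, 6.90 and 6.85 in prepachytene (change 5.24, standard error 0.14, adjusted p = 8.7e-07). *Haus2* of the augmin complex and *Cep68*, which links centrosomes, were lower by at least 5.34 and 4.44. Tubulin genes followed neither direction as a group (1 of 14 higher, 4 lower). *Tubb5*, a general beta-tubulin, was lower by at least 3.95, and *Tubd1*, the delta-tubulin of centriole triplets, was higher by 3.79. Among 43 kinesins, 9 were called higher (20.9%) and 18 lower (41.9%), the latter near the 40.1% over autosomal genes above the background level. *Kif6* (4.64) and *Kif5b* (-5.47) were at the ends, and the sign of the median depended on the scaling.

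**Figure D2:**
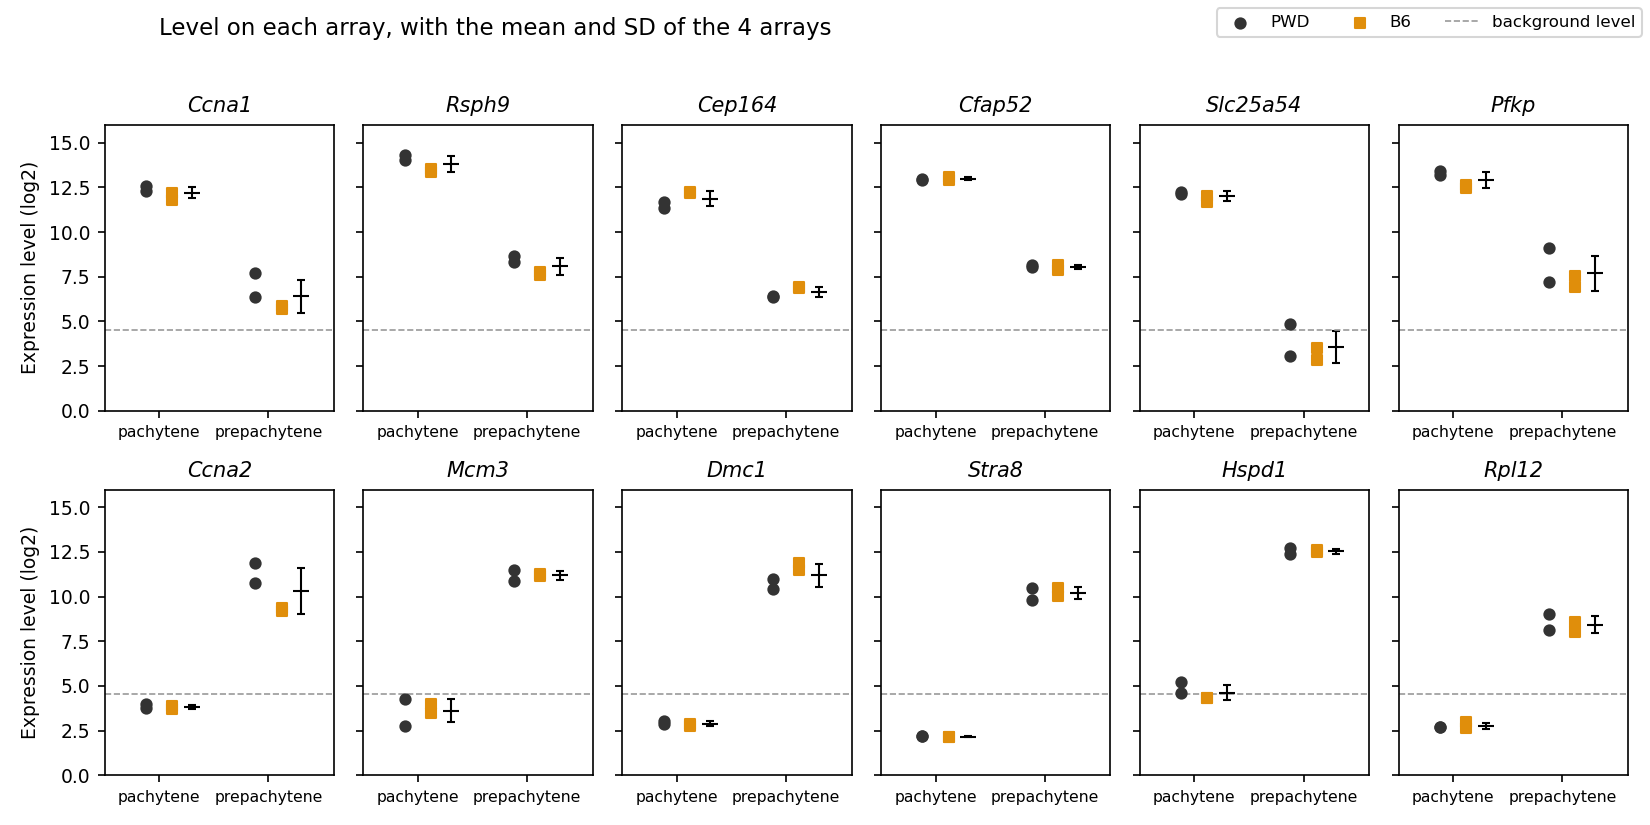
Level (log2) of 12 genes on each array, with pachytene left of prepachytene, circles for PWD and squares for B6, and a bar for the mean and SD of the 4 arrays. A dashed line marks the floor of 4.54. In each panel the 4 pachytene arrays are separated from the 4 prepachytene arrays.

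Genes of the acrosome and of the sperm surface formed the next group. Of 86 measured, 51 were called higher and 5 lower (median 1.73, and 1.64 with genes on the floor at their bounds). The acrosome and its matrix had 26 of 37 genes higher and 2 lower. *Acr*, the acrosomal protease proacrosin, was at 12.30, 12.06, 12.20 and 11.83 in pachytene and at 7.34, 7.93, 7.72 and 7.53 in prepachytene (change 4.47, adjusted p = 2.8e-06). *Hyal6*, a hyaluronidase, changed by 5.39, *Prss21*, a serine protease, by 5.17, and *Dpy19l2*, which anchors the acrosome to the nucleus, by 4.89. *Prss21* was at 12.75, 12.54, 12.32 and 12.00 in pachytene and at 7.77, 8.62, 6.40 and 6.13 in prepachytene, so that the populations did not overlap and PWD lay above B6 in both. *Tex101*, a surface glycoprotein of germ cells, went the other way, at 8.61, 9.31, 9.09 and 9.48 in pachytene against 15.27, 15.30, 15.30 and 15.27 in prepachytene (change -6.16, adjusted p = 1.1e-06). *Tex101* continued at 6.60 in spermatids.

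The ADAM family of membrane metalloproteases split by kind. Of 28 members, 15 were called higher and 3 lower. *Adam2*, a subunit of the sperm protein fertilin, was at 14.67 ± 0.22 in pachytene and 10.85 ± 0.40 in prepachytene (change 3.81), and *Adam18* and *Adam1b* changed by 5.73 and 4.70. The 3 called lower were the widely expressed sheddases *Adam10*, *Adam9* and *Adam17*. *Adam10* was at 3.39 to 3.97 on the pachytene arrays, below the background level, and at 10.90 to 12.02 on the prepachytene arrays, a difference of at least 6.82. *Adam17* was not reached by the naming rule and was added after its values were seen (-1.76). Sperm ion channels and exchangers had 10 of 21 members higher and 0 lower. *Catsperd*, a subunit of the CatSper calcium channel, was at 12.77, 12.87, 11.89 and 11.78 in pachytene and at 9.54, 10.04, 8.79 and 8.54 in prepachytene (change 3.10), with PWD above B6 on both sides. *Catsper3* changed by 3.18 and is also 1 of the 3 spermatid markers called higher, with *Acrv1* and *Izumo1* of the acrosome list.

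**Figure D3:**
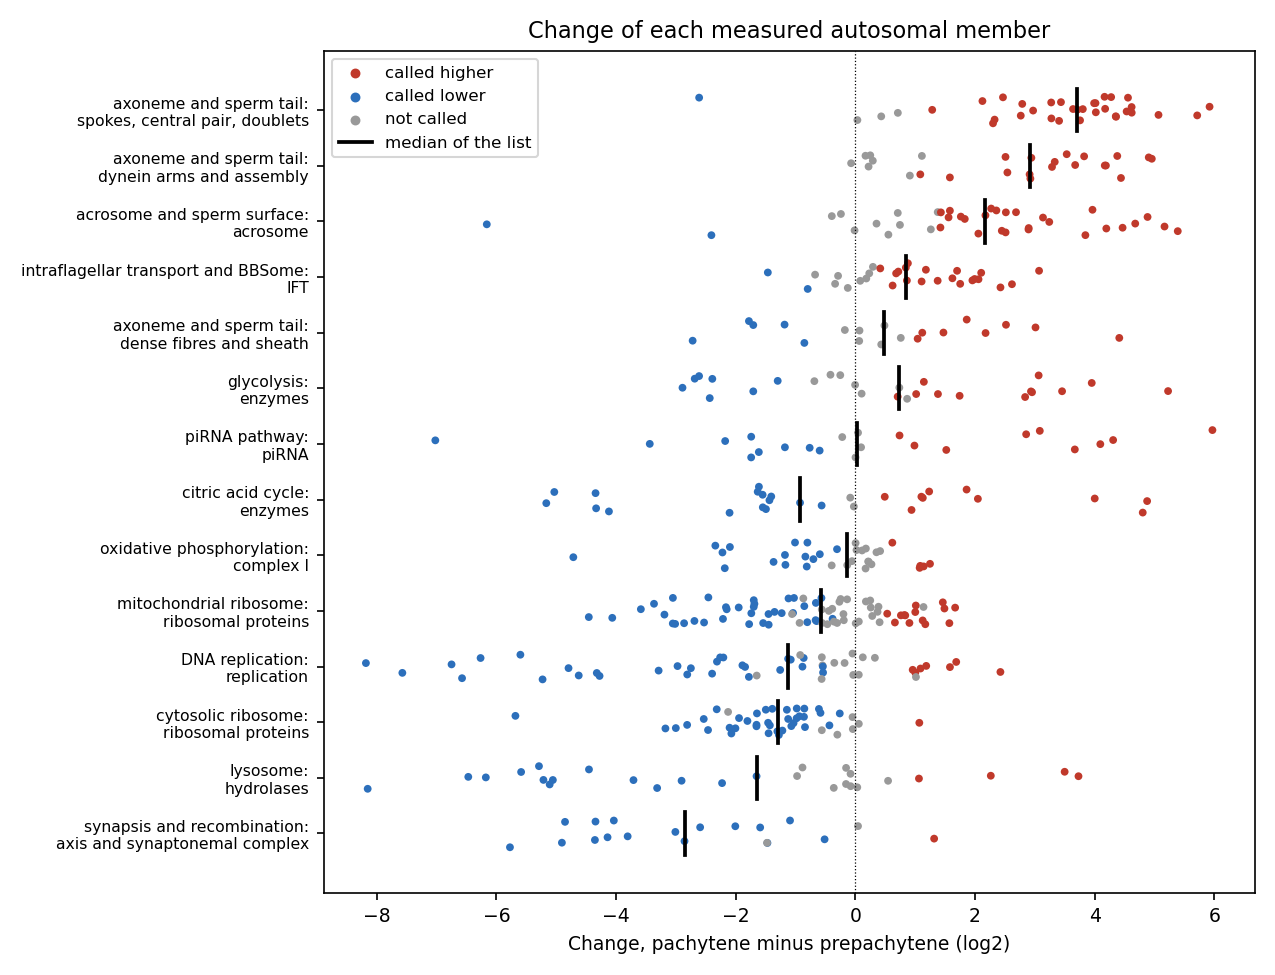
Change (pachytene minus prepachytene, log2) of every measured autosomal member of 14 groups of genes, with 1 point per gene, coloured by its call, and a bar at the median. The spokes lie almost wholly to the right of 0, the axis of the synaptonemal complex and the ribosome to the left, and the citric acid cycle and piRNA groups on both sides.

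Cell cycle genes were called in both directions. Among 61 genes of the divisions 21 were called higher and 22 lower (34.4% and 36.1%). Over all autosomal genes above the background level the shares were close to these, at 36% and 40.1%. The sign of the median of the list depended on the scaling (-0.14, or 0.25 after centring). *Ccna1*, the cyclin A of male meiosis on chromosome 3, was at 12.56, 12.30, 12.18 and 11.81 in pachytene and at 6.34, 7.71, 5.88 and 5.68 in prepachytene (change 5.81, standard error 0.33, adjusted p = 1e-05). *Ccna2*, the cyclin A of S phase and mitosis on the same chromosome, was below the background level in pachytene (3.71 to 4.00) and at 10.75, 11.91, 9.39 and 9.18 in prepachytene. Its difference was at least 5.77 (adjusted p = 2.5e-05), in the direction opposite to that of *Ccna1*. Of 13 cyclins, 3 were called higher and 8 lower. Kinases and phosphatases had 11 of 22 called higher and 5 lower, among them *Aurkc*, the Aurora kinase of meiosis, with a change of 5.40, and *Cdk6* with 4.02, whereas *Melk* and *Cks1b*, both of proliferating cells, changed by -4.74 and -4.62. *Fbxo5*, an inhibitor of the anaphase-promoting complex, was lower by at least 5.04, and the checkpoint genes *Mad2l1* and *Bub1* changed by -4.05 and -2.48. The cohesin protector *Sgo1* changed by -4.18. *Cdkn2d*, an inhibitor of cyclin D kinases, was at 11.80 ± 0.18 in pachytene and 8.69 ± 0.13 in prepachytene (change 3.11).

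Genes of DNA replication, which precedes prophase, were lower as a group: of 49 measured, 29 were called lower and 7 higher (median -1.12, and -0.73 after centring). *Cdt1*, the licensing factor on chromosome 8, was at 1.88 to 1.92 on the pachytene arrays and at 10.42, 11.00, 9.41 and 9.50 in prepachytene, a difference of at least 5.54 (adjusted p = 2e-06). *Mcm3*, a subunit of the replicative helicase, was at 2.74 to 4.27 in pachytene and at 10.85, 11.50, 11.25 and 11.16 in prepachytene (at least 6.65), *Mcm2* of the same complex was lower by at least 5.13, and *Mcm4* was above the background level in pachytene at 5.59 ± 0.46 against 12.34 ± 0.26 in prepachytene (change -6.75). The 7 genes called higher, named after their values were seen, were *Rfc1*, *Rfc2*, *Gins1*, *Gins4*, *Rpa1*, *Rrm1* and *Uhrf1*, with changes of 0.96 to 2.43. Spermatogonial markers, which mark another replicating cell, moved in the same direction as this list, and their part was not tested.

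Genes of meiotic recombination were lower more often than higher. Of 55 genes of synapsis and recombination, 39 were called lower and 6 higher (median -2.01), and 10 of them also stand among the prepachytene markers. All 6 measured genes of double-strand break formation were called lower. *Prdm9*, the methyltransferase that marks break sites, was at 2.49 to 2.90 in pachytene and at 8.34, 9.16, 7.78 and 7.88 in prepachytene, at least 3.75 lower. *Spo11*, which cuts the DNA, had the smallest change of the 6 (-0.99), with 10.94 ± 0.29 in pachytene and 11.92 ± 0.28 in prepachytene. Strand exchange had 8 of 13 genes lower and 1 higher. *Dmc1*, the meiotic recombinase on chromosome 15, was at 2.75 to 3.06 in pachytene and at 10.43, 10.98, 11.50 and 11.89 in prepachytene, a difference of at least 6.66 (adjusted p = 1.8e-06). *Atm*, the kinase that responds to breaks, was lower by at least 6.34, *Mnd1* by at least 3.93, and *Brca1* changed by -5.36.

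The synaptonemal complex, which persists through pachytene as a structure, had 16 of 19 messengers lower and 1 higher. *Sycp1*, its transverse filament, was at 9.18, 9.67, 9.68 and 9.43 in pachytene and at 14.41, 14.55, 14.18 and 14.23 in prepachytene (change -4.85, adjusted p = 1.4e-06). *Syce2* of the central element changed by -4.14 and *Hormad2*, which binds unsynapsed axes, by -4.91. The cohesin subunit *Rad21* changed by -4.35. *Syce1* of the same central element, named after its values were seen, was the single gene called higher, at 13.50 ± 0.27 in pachytene and 12.19 ± 0.17 in prepachytene (change 1.32). Crossover genes had 6 of 8 lower, such as *Msh4* (-3.69), *Exo1* (-3.17) and *Ccnb1ip1* (-2.66), and 2 higher, *Mlh3* and *Mus81* (1.59 and 2.00, chosen after their values were seen). Telomere attachment had 3 of 9 lower and 2 higher, with *Sun1* at -2.30 and *Syne2* at 2.11, and its median changed sign with the scaling.

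The promoters shown are picked examples, and the motifs marked in each were chosen for that gene. The motifs of 8 regulator families were counted over the promoters of called genes and of several lists. *Ccna1* and *Cep164* were described above under the cyclins and the centrosome, which had calls in both directions and were not among the lists counted. The sequences are those of GRCm38.p6 from RefSeq, 250 bases before and 50 after the annotated start, read 5′ to 3′ on the strand of the gene, with capitals for the matches of the motifs named beside each gene. The MYB motif was CNGTTG, which is CAACNG on the other strand. The RFX motif was GTTGCC, read there as GGCAAC. The E2F motif was TTTNNCGC, read there as GCGNNAAA. The others were the cAMP response element TGACGTCA and the E-box CACGTG, which read the same on both strands, CCAAT of NFY, read there as ATTGG, CNCCTCAG of STRA8, read there as CTGAGGNG, and the motif of NRF1. A MYB match can overlap an RFX match, as in the promoter of *Spag6l*. Matches left in lower case are 1 cAMP response element in *Spag6l*, 1 MYB match in *Mcm3*, and NFY matches in *Ccna1* (1), *Cep164* (3) and *Mcm3* (3).

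Ccna1 (chr3:55055006-55055305, minus strand; MYB): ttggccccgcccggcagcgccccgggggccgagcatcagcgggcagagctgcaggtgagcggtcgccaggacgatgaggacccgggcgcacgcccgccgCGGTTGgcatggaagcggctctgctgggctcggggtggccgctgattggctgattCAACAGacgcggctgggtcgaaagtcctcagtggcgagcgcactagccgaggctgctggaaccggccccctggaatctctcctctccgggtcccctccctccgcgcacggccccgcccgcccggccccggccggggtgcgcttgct
Cep164 (chr9:45828614-45828913, minus strand; MYB and RFX): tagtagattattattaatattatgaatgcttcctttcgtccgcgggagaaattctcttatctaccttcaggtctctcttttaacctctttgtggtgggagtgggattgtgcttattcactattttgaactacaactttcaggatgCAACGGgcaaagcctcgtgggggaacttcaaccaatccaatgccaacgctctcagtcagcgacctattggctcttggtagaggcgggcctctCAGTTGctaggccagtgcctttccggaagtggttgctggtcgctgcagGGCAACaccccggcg
Spag6l (chr16:16829314-16829613, minus strand; MYB and RFX): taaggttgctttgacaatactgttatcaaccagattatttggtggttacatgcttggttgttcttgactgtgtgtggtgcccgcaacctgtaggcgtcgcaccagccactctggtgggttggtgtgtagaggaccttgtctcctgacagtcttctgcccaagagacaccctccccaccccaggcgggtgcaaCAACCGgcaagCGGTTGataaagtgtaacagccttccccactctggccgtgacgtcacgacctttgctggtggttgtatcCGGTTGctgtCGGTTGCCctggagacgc
Mcm3 (chr1:20820263-20820562, minus strand; E2F): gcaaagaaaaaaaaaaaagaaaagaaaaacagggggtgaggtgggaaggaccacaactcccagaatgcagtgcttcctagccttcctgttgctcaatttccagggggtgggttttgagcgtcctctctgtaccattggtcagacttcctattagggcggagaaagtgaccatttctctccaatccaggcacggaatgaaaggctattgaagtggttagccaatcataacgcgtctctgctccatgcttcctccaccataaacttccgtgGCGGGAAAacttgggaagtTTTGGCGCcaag
Cdt1 (chr8:122567765-122568064, plus strand; E2F): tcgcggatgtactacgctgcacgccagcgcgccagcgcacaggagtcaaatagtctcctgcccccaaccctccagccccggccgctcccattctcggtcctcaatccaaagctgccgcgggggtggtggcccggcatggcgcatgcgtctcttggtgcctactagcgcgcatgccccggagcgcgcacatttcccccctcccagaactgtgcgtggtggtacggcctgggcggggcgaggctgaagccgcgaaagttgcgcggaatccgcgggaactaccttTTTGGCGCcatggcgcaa
Dmc1 (chr15:79605060-79605359, minus strand; E2F): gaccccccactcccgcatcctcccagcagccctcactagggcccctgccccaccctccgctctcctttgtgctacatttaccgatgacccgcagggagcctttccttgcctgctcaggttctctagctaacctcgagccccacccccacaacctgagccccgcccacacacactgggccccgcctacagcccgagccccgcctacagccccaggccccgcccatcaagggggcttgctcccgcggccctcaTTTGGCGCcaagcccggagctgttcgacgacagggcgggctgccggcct

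A MYB match was present in 35.1% of the promoters of all 27025 genes with a listed promoter, in 40.2% of the 2999 of autosomal genes called higher and in 30.5% of the 3408 of those called lower. It was in 36 of 66 promoters of the axoneme list (54.5%), in 27 of 47 of intraflagellar transport and the BBSome (57.4%), in 45% of the acrosome and surface list, in 39% of the replication list, in 28.3% of the synapsis list and in 25.6% of the ribosome. The replication list, most of whose members were lower, thus lay close to the genes called higher. *Ccna1* had 2 matches that begin at bases -151 and -96 from the start, and *Spag6l* had 4. An RFX match was in 12.7% of all promoters, in 16.3% of those called higher and in 11.6% of those called lower, but in 33.3% of the axoneme list and in 42.6% of the intraflagellar transport list. For the acrosome list this share was 11.7%, next to that of all genes, and for the synapsis, replication and ribosome lists it was 10.9%, 9.76% and 2.56%. E2F matches were in 5.27% of all promoters, in 8.2% and 9.6% of those called higher and lower and in 8.54% of those expressed and not called. They were in 36.6% of the replication list (15 of 41), where *Mcm3* had 2 and *Cdt1* 1, in 23.1% of the ribosome, in 17.4% of the synapsis list, in 8.51% of intraflagellar transport, in 8.33% of the acrosome list and in 4.55% of the axoneme list. The cAMP response element was in 1.88% of all promoters, 2.93% of those called higher and 4.17% of those called lower. For the E-box these shares were 7.24%, 9.77% and 11.9%, for NFY 37.9%, 39.9% and 39.3%, for STRA8 7.97%, 8.8% and 10.8%, and for NRF1 0.977%, 2.17% and 2.64%. In promoters of genes expressed and not called, the shares were 34.9% for MYB, 13.7% for RFX and 3.58% for the cAMP response element. There they were 9.94% for the E-box, 38.1% for NFY, 9.39% for STRA8 and 1.99% for NRF1. For the cAMP response element, the E-box and NRF1, genes called in either direction lay closer to these than to all promoters. By list, NFY matches reached 57.4% in intraflagellar transport and 56.1% in replication, and the E-box 19.6% in the synapsis list. Promoters differed in base composition, with a median of 59% G and C in those called higher, 62.7% in those called lower and 52.7% in all, and the part of composition in the motif shares was not tested. A match is a run of letters and no evidence of binding. Of genes that encode factors of these families, *Mybl1* changed by 2.86, *Rfx2* by 1.81, *E2f8* by 4.13, and *E2f1* was lower by at least 3.21, with *Mybl1* and *Rfx2* chosen after their values were seen. The other members of these families are not given, and a link between the factors and the motif shares was not tested. Of 20 cell cycle regulators of transcription, 4 were called higher and 7 lower.

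The regulators of germ cell transcription were mixed, with 16 of 50 called higher and 25 lower. *Stra8*, which starts the meiotic programme, was at 2.13 to 2.19 on the pachytene arrays and at 9.83, 10.49, 10.05 and 10.46 in prepachytene, at least 5.67 lower (adjusted p = 8.6e-07). *Sohlh2*, a factor of spermatogonia and 1 of 5 spermatogonial markers in the list, was lower by at least 4.95, and *Taf4b*, a germ cell subunit of the general factor TFIID, changed by -7.33 (5.89 ± 0.54 in pachytene and 13.21 ± 0.38 in prepachytene). *Ovol2*, a zinc finger repressor, was among the genes higher in pachytene, at 9.85, 9.91, 9.24 and 9.29 against 2.60, 4.28, 3.66 and 3.30 in prepachytene, at least 5.03 higher. The subunit *Polr2h*, shared by the RNA polymerases, was at 2.66 to 2.71 in pachytene and 9.12 to 9.61 in prepachytene, a difference of at least 4.81.

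Chromatin regulators were more often lower than higher, 67 of 139 against 28 (median -0.64, and -0.25 after centring). The histone methylation group had 33 of 58 lower, such as *Ehmt1*, a methyltransferase of lysine 9 of histone H3 (at least 4.27 lower), and *Kmt2c* and *Nsd1* (changes of -5.74 and -5.22). *Smarca2*, an ATPase of the SWI/SNF remodelling complex, was at 14.23, 14.16, 13.88 and 13.49 in pachytene and at 9.32, 8.95, 7.64 and 8.14 in prepachytene (change 5.43), and *Morc2b* changed by 4.28. Of 14 histone genes with their own probesets 2 were called higher and 5 lower. *Cenpa*, the centromeric H3 variant, was lower by at least 6.25, *H2az2* and *H2ax* changed by -4.06 and -2.34, and *Macroh2a1*, a variant found on the silenced sex body, was at 11.89 ± 0.38 in pachytene and 9.88 ± 0.34 in prepachytene (change 2.01). Nuclear pore genes gave 21 of 62 higher (33.9%) and 24 lower (38.7%), beside 36% and 40.1% over all autosomal genes above the background level. Their median changed sign with the scaling, and *Nup210* was lower by at least 5.66 and *Seh1l* by at least 5.52.

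Ribosomal protein genes were lower almost throughout. Of 44 measured autosomal genes of the cytosolic ribosome, 37 were called lower and 1 higher, with a median change of -1.29 (-0.90 after centring, where 33 were lower and 2 higher). *Rpl22* was at 12.56, 13.14, 11.25 and 11.44 in pachytene and at 15.37, 15.16, 14.88 and 14.99 in prepachytene (adjusted p = 7.6e-05), *Rpl10a* changed by -3.17 and *Rps10* by -2.81. *Rpl12* had the largest difference, at 2.62 to 2.99 in pachytene and 8.02 to 9.01 in prepachytene, at least 3.90. Most of these messengers were still abundant: the 37 genes had a median level of 14.44 in prepachytene, 12.74 in pachytene and 12.46 in spermatids. *Rpl39l*, a testis-enriched copy of an X-linked ribosomal gene that was added to the text after its values were seen, was the gene called higher, at 15.10, 15.05, 14.66 and 14.48 in pachytene and at 14.24, 13.57, 13.73 and 13.47 in prepachytene. Ribosomal genes have many processed copies, and probesets can read several of them.

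The mitochondrial ribosome had 36 of 75 genes lower and 14 higher (median -0.57), against 28 lower and 21 higher after centring (median -0.18), such as *Mrpl21* with -4.06 and *Mrpl58* with -3.59. Translation factors had 25 of 62 lower and 14 higher, and after centring 19 were lower and 25 higher, with a median that changed sign (-0.23, or 0.16 after centring). *Paip2* and *Paip2b*, inhibitors of poly(A)-binding protein, changed by -4.70 and -4.93. *Pabpc6*, a poly(A)-binding protein, was at 14.55, 14.61, 13.84 and 13.55 in pachytene and at 9.88, 10.21, 9.06 and 9.00 in prepachytene, a change of 4.60 (adjusted p = 8.7e-07).

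Messenger storage, polyadenylation and silencing had 37 of 63 genes lower and 15 higher (median -1.26). *Dazl*, an RNA-binding protein required for germ cells, was at 7.58, 8.59, 8.43 and 8.02 in pachytene and at 14.74, 14.62, 14.73 and 14.81 in prepachytene (change -6.57, adjusted p = 1.8e-06). *Dicer1*, the nuclease that matures miRNAs, was lower by at least 7.40, and the silencing factor *Tnrc6a* changed by -4.87. Opposite to these, *Ddx25*, a helicase that exports and stores messengers of spermatids, was at 14.28 ± 0.54 in pachytene and 10.25 ± 0.21 in prepachytene (change 4.03), and the testis poly(A) polymerase *Papolb* changed by 4.41. Splicing genes had 39 of 78 lower and 8 higher (median -0.58), and 33 lower and 21 higher after centring (median -0.19). The RNA-binding regulators *Elavl2* and *Celf2* were not above the background level on any pachytene array and were lower by at least 7.28 and 7.04. The core changed less, with *Snrpb* at -3.21 and *Prpf19* at -2.37, and among 11 SR proteins 7 were called lower and 0 higher, with *Srsf3* at -2.33.

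Of 22 genes of the piRNA pathway, which silences transposons and processes pachytene piRNAs, 9 were called higher and 9 lower (median 0.02). These shares (40.9% each) lay near the 36% and 40.1% over all autosomal genes above the background level. *Piwil1*, the PIWI protein of pachytene piRNAs, was at 11.72, 12.23, 12.51 and 12.44 in pachytene and at 7.46, 6.11, 9.09 and 8.99 in prepachytene (change 4.31, adjusted p = 0.00018). The methyltransferase *Henmt1* was higher by at least 4.81 and the Tudor protein *Tdrd1* changed by 4.10. *Btbd18*, a nuclear factor of piRNA precursor transcription, was lower by at least 5.23, with 2.29 to 3.44 in pachytene and 9.26 to 10.28 in prepachytene. *Piwil2*, the PIWI protein of earlier stages, changed by -1.18, and *Ddx4* and *Mael* were not called (0.00 and 0.05), and these 3 were chosen after their values were seen.

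Enzymes of glycolysis had 12 of 26 genes higher and 7 lower (median 0.72), and transporters and pyruvate entry 8 of 19 higher and 5 lower. *Pfkp*, a phosphofructokinase, was at 13.42, 13.21, 12.65 and 12.44 in pachytene and at 7.21, 9.11, 7.57 and 6.92 in prepachytene (change 5.23, adjusted p = 3.8e-05), and *Pfkm* of the same reaction changed by 3.07. *Eno4*, an enolase of the sperm tail, changed by 3.95 and *Ldha*, lactate dehydrogenase A, by 3.46. Carriers differed. The glucose carrier *Slc2a1* was lower by at least 4.80 and the monocarboxylate carrier *Slc16a1* was at 4.10 ± 0.61 in pachytene and 11.06 ± 0.19 in prepachytene (change -6.96), whereas the fructose carrier *Slc2a5* was at 13.10, 12.96, 12.87 and 12.43 in pachytene and at 8.29, 9.15, 7.79 and 7.75 in prepachytene (change 4.59). *Pdk1*, which inhibits pyruvate dehydrogenase, was lower by at least 3.63.

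The citric acid cycle had 10 of 27 genes higher and 15 lower (median -0.92). *Mdh2*, mitochondrial malate dehydrogenase, was at 9.60, 9.97, 8.68 and 8.76 in pachytene and at 14.97, 14.83, 13.63 and 13.71 in prepachytene (change -5.03, adjusted p = 8.3e-07). *Csl*, a second citrate synthase gene, was at 11.33, 11.08, 11.48 and 10.83 in pachytene and at 5.56, 6.43, 6.95 and 6.27 in prepachytene (change 4.88). Oxidative phosphorylation had 39 of 79 genes lower and 13 higher. That count depended on the scaling: after centring 26 were lower and 24 higher, and the median changed sign (-0.31, or 0.08). ATP synthase had 11 of 16 lower and 1 higher, and 7 lower and 3 higher after centring, led by *Atp5g2* (-4.80). Complex I had 15 of 33 lower and 5 higher, led by *Ndufa4* (at least 3.56 lower), and complex IV 9 of 19 lower and 3 higher, led by *Cox15* (-6.52), a factor of heme assembly, and the medians of both complexes changed sign with the scaling. *Cycs*, somatic cytochrome c, was at 7.64, 7.37, 7.63 and 7.32 in pachytene and at 14.92, 14.76, 13.95 and 13.95 in prepachytene (change -6.90, adjusted p = 1.1e-06).

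Among mitochondrial carriers 12 of 41 were called higher and 12 lower. *Slc25a54* was at 12.27, 12.13, 12.04 and 11.66 in pachytene and at 3.04, 4.85, 3.53 and 2.84 in prepachytene (approximate change 8.46, adjusted p = 4.6e-06), where 1 prepachytene array alone stood above the background level. The dicarboxylate carrier *Slc25a10* changed by 5.08. Fatty acid oxidation had 15 of 39 lower and 6 higher, with a median whose sign depended on the scaling and with *Etfa*, an electron carrier, at 6.23 ± 0.23 in pachytene and 12.87 ± 0.23 in prepachytene (change -6.64). Cholesterol synthesis had 10 of 20 lower and 2 higher, and its regulators *Scap* and *Srebf1* were lower by at least 7.03 and 3.90. Nucleotide synthesis had 16 of 32 lower and 8 higher, with *Ctps* at -6.70 and the testis enzyme *Prps1l1* at 4.64. Enzymes of phosphate transfer leaned the other way (9 of 19 higher, 3 lower), with the adenylate kinases *Ak3* and *Ak7* at 5.04 and 3.71.

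Pairs of paralogous genes with 1 function were set side by side. The 14 pairs were chosen with values of these arrays in view, so that their counts are a description. In 12 pairs the change of the gene known from the testis was the higher with its sign, and in 7 it was called higher while its counterpart was called lower, as for *Ccna1* and *Ccna2*. By absolute size the counterpart changed more in 8 pairs. Cytochrome c of the testis, *Cyct*, was at 12.82, 13.09, 12.31 and 12.10 in pachytene and at 11.89, 10.68, 11.21 and 10.68 in prepachytene (change 1.46), against -6.90 for *Cycs*. The pair *Cox6b2* and *Cox6b1* of cytochrome oxidase changed by 2.16 and -2.63, *Csl* and *Cs* of citrate synthase by 4.88 and -2.10, *Papolb* and *Papola* by 4.41 and -2.82, and the heat shock proteins *Hspa2* and *Hspa8* by 1.88 and -4.09. *Pabpc2* (4.52) and *Pabpc6* (4.60) were higher, while *Pabpc1*, at 15.59 ± 0.20 in pachytene and 15.68 ± 0.10 in prepachytene, was not called (-0.09, adjusted p = 0.41). The lactate dehydrogenases *Ldhc* (0.71) and *Ldha* (3.46) and the aldolases *Aldoart1* (0.87, not called) and *Aldoa* (1.02) did not follow the pattern, and the ADP/ATP carriers *Slc25a31* and *Slc25a4* were both lower (-1.01 and -5.28). *Ldhc* was bright in both populations, at 16.17 ± 0.21 in pachytene and 15.46 ± 0.13 in prepachytene.

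**Figure D4:**
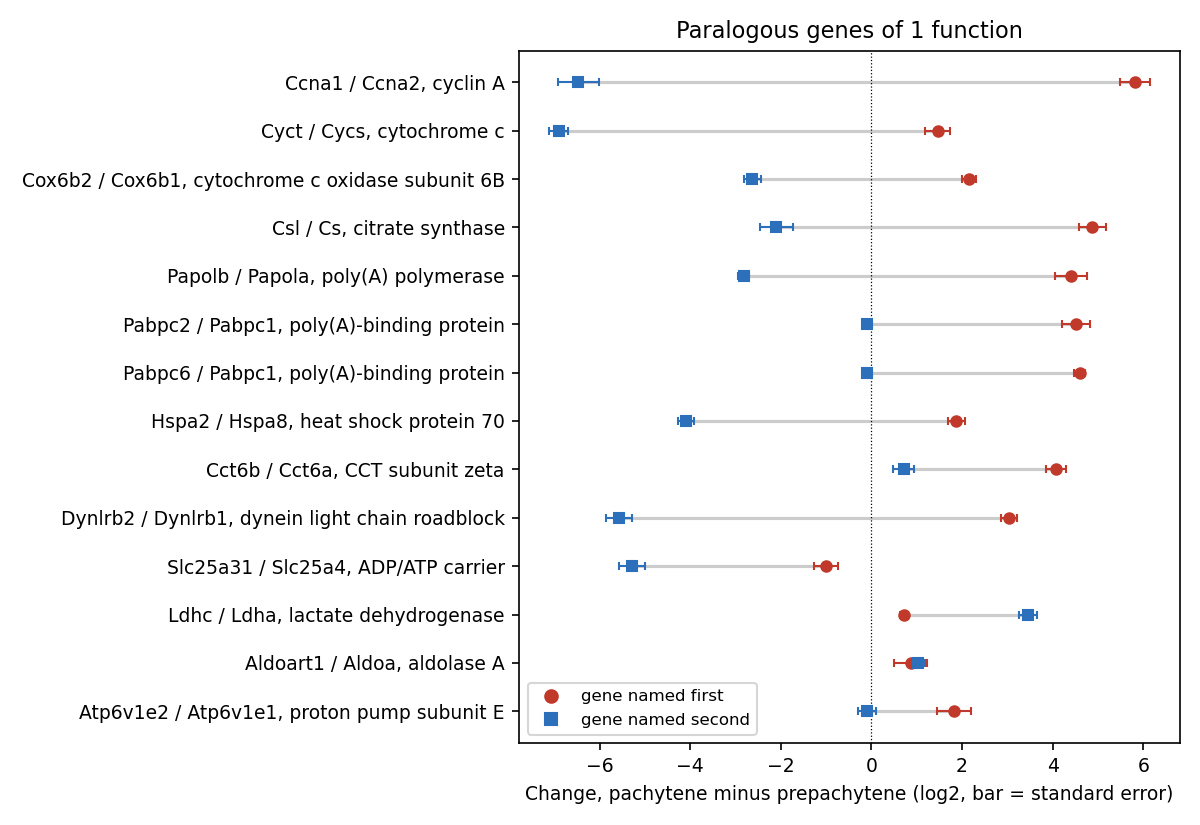
Change (log2, with its standard error) of both genes of 14 pairs, where the gene named first (red circle) is the one known from the testis and the gene named second (blue square) its counterpart. In 12 pairs the circle lies to the right of the square, the exceptions being lactate dehydrogenase and aldolase A.

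Chaperones were called in both directions. Of 79 chaperone genes 27 were called higher (34.2%) and 26 lower (32.9%), beside 36% and 40.1% over all autosomal genes above the background level. *Hspd1*, the chaperonin of mitochondria, was at 4.59, 5.20, 4.32 and 4.32 in pachytene and at 12.40, 12.71, 12.48 and 12.59 in prepachytene (change -7.94, adjusted p = 8.7e-07). Both B6 pachytene arrays lay below the background level, so that this change is approximate. The partner of *Hspd1*, *Hspe1*, which starts head to head with it on chromosome 1, was at 6.65, 6.81, 5.01 and 5.02 in pachytene and at 12.74, 12.70, 10.48 and 10.34 in prepachytene (change -5.69). For *Hspe1*, PWD lay above B6 in both populations. In contrast, the cytosolic chaperonin CCT had 6 of 9 subunits higher and 1 lower. *Cct6b*, a testis subunit, was at 15.04, 15.05, 14.65 and 14.27 in pachytene and at 10.66, 11.67, 10.16 and 10.24 in prepachytene (change 4.07), whereas *Cct2*, *Cct7* and *Tcp1* changed by -0.90, 0.85 and 0.60. *Bag3*, a cochaperone of HSP70, changed by 5.82 and *Dnajb2* by 4.42, and *Hspa1b*, a stress-inducible HSP70, was lower by at least 5.47. The proteasome had 19 of 42 genes lower and 9 higher, and its median changed sign with the scaling. The *Psma2* subunit changed by -2.34.

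In the secretory pathway, translocation and folding in the endoplasmic reticulum had 24 of 46 genes lower and 11 higher (median -0.94). The stress sensor *Ern1* changed by -5.71, the folding sensor *Uggt1* by -5.33 and *Sec62* of the translocon by -3.55. Golgi and vesicle genes had 53 of 129 lower and 36 higher, a list whose median changed sign with the scaling, with *Uso1*, a tether, at -6.38 and the small GTPases *Rab5a* and *Rab27a* at -4.96 and 4.57. Lysosomal hydrolases had 14 of 27 lower and 4 higher (median -1.65, and -1.08 with genes on the floor at their bounds). *Grn*, progranulin, is counted in this part although it is not itself a hydrolase. *Grn* was at 5.35, 5.66, 5.63 and 5.30 in pachytene and at 13.45, 14.34, 13.38 and 13.39 in prepachytene (change -8.15, adjusted p = 1e-06). The cathepsins *Ctsd* and *Ctsl* changed by -6.18 and -6.47. *Ctsl* is also a Sertoli marker, the Sertoli markers fell in the same direction, and their part in the lysosomal genes was not tested. *Mcoln1*, the calcium channel of lysosomes, was lower by at least 5.87.

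Among signalling and junction genes more were called lower than higher, although the medians of both changed sign with the scaling. Of 112 genes of receptors and pathways, 57 were above the background level, 10 were called higher and 30 lower. *Bmpr2*, a receptor of bone morphogenetic proteins, was at 3.53 to 3.67 in pachytene and 10.31 to 11.44 in prepachytene (at least 6.46 lower), whereas *Smad1*, its intracellular transducer, was at 14.28, 14.30, 13.67 and 13.43 in pachytene and 10.05, 11.34, 9.64 and 9.06 in prepachytene (change 3.90). In the retinoic acid pathway, which drives meiotic entry, 6 of 17 genes were lower and 1 higher, among them *Rbp4* and *Rdh10* (at least 4.85 and 3.94 lower), and the sign of the median depended on the scaling. *Lef1*, a nuclear effector of Wnt signals, changed by 5.39. Of 43 junction genes 19 were lower and 8 higher. Of 44 actin genes 14 were lower and 12 higher, but 11 lower and 19 higher after centring. *Arpc5*, a subunit of the actin nucleator Arp2/3, was lower by at least 5.51 and fibronectin, *Fn1*, was at 4.77 ± 0.17 in pachytene and 12.32 ± 0.37 in prepachytene (change -7.55). *Cdh2*, N-cadherin, which also joins germ cells to Sertoli cells, was at 14.04, 14.30, 12.68 and 12.50 in pachytene and at 7.91, 8.08, 6.58 and 6.17 in prepachytene (change 6.20, adjusted p = 8.3e-07). Sertoli markers were lower in pachytene, so that *Cdh2* ran against them, while the part of Sertoli cells in the genes that were lower was not tested.

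Genes of cAMP signalling, which later drives sperm motility, differed in their counts by step. Enzymes of synthesis and breakdown had 10 of 33 higher and 3 lower, with 14 above the background level, and the kinase and its anchors 4 of 23 higher and 11 lower. With the replicate number as a block the enzymes kept 10 and 3, and the kinase and anchors had 3 higher and 7 lower. The median of the kinase and anchors was -0.48, but 0.06 when each gene was taken as the median of its probesets. *Adcy6*, an adenylyl cyclase, was at 10.91, 10.41, 10.19 and 10.08 in pachytene and at 2.65 to 3.46 in prepachytene, a difference of at least 5.86 (adjusted p = 1.2e-06). The phosphodiesterase *Pde1c* changed by 4.82, the anchor *Akap9* by -5.44, and the catalytic subunit *Prkacb* was lower by at least 3.14. Of 46 genes of antigen presentation and interferon, 20 were above the background level, 4 higher and 10 lower. *H2-D1*, a class I antigen, was at 4.01, 3.88, 4.78 and 4.23 in pachytene and at 13.54, 14.08, 13.13 and 13.19 in prepachytene (change -9.26, adjusted p = 1.4e-06), and *B2m*, the light chain of class I molecules, changed by -2.74. *Dhx58*, a sensor of viral RNA, changed by 6.87. In the apoptosis list 9 of 48 were higher and 14 lower, with *Apaf1* lower by at least 3.70 and *Bad* higher by 2.60.

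Some genes crossed the background level altogether. On all pachytene arrays and on no prepachytene array, 250 autosomal genes were above the background level, of which 249 were called and 221 (88.4%) were above that level in spermatids. The reverse held for 685 genes, of which 683 were called and 70 (10.2%) were above it in spermatids. Of the brightest in the first set, *Abca14*, a lipid transporter, was at 11.38, 11.30, 11.48 and 10.98 in pachytene (at least 6.74 higher), *Slc34a2*, a phosphate carrier, was higher by at least 5.07 and *Pxt1* by at least 5.20. In the second set, *Ugt8a*, a galactosyltransferase of sulfogalactolipid synthesis, was at 2.79 to 3.50 in pachytene and at 11.48, 12.12, 12.48 and 12.74 in prepachytene (at least 7.67 lower), *Top2b*, a topoisomerase, was lower by at least 7.82 and *Snx16*, a sorting nexin, by at least 7.15. Over all genes called higher, the median level was 7.55 in prepachytene, 10.01 in pachytene and 9.80 in spermatids, and 96% of them were above the background level in spermatids. Over those called lower, the medians were 9.84, 7.05 and 6.53 in the same order of stages, and 71.3% were above it.

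Pathways of Reactome with 15 to 150 measured genes were ranked by their shares of calls, without a test. A pathway was passed over where over 1 in 3 of its genes lay in one ranked above it. Of 648, the share called higher was then greatest in Fertilization (12 of 20, 60%) and in Intraflagellar transport (23 of 40, 57.5%). Next came KSRP destabilizes mRNA (7 of 16 higher, 6 lower), the citric acid cycle (7 of 17 higher, 8 lower) and RNA Polymerase III Chain Elongation (6 of 15 higher, 8 lower). Assembly of the primary cilium followed with 39.6% of 149 genes higher and 30.9% lower, beside 36% and 40.1% over autosomal genes above the background level. The share called lower was greatest in Eukaryotic Translation Termination (37 of 44, 84.1%), whose measured genes are mostly ribosomal, as in the pathways passed over after it, such as Eukaryotic Translation Elongation (38 of 47, 80.9%), and in Activation of the pre-replicative complex (21 of 28, 75%). Mitotic Prometaphase had 57 of 91 genes lower and 11 higher, and RNA Polymerase II Promoter Escape 23 of 36 lower and 5 higher.

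The chromosomes differed little: the share of genes called higher ran from 19.1% (chromosome 6) to 24.8% (chromosome 8), and that called lower from 19.8% (chromosome 7) to 28.2% (chromosome 2). By contrast, 17 of 617 X-linked genes (2.76%) were higher and 275 (44.6%) lower, and the X chromosome is not part of the lists.

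Both strains were measured apart, so that each change could be taken within PWD and within B6. Across the 10227 genes above the background level the changes correlated with r = 0.89, where genes are not independent replicates. Tested within 1 strain, with the spread pooled over the 4 groups, 3553 genes were called higher and 3992 lower in PWD and 3356 and 3897 in B6. The change depended on the strain for 3424 probesets (7.6%) and for 1319 autosomal genes (7.58% of those measured), among them 884 (11.4%) of the 7788 called. These counts were unsteady: 1189 probesets and 373 genes passed in a fit with the replicate number as a block, and 1743 to 5682 probesets and 489 to 1689 genes when 1 array was left out. Replicates were closest in B6, where the median absolute difference between the 2 arrays was 0.18 in pachytene and 0.19 in prepachytene, against 0.28 and 0.35 in PWD. Probes were designed on sequence close to that of B6, and the part of mismatches to PWD sequence in the genes that depended on the strain was not tested. On the prepachytene arrays the mean level of Sertoli markers was 7.74 and 7.41 in PWD and 6.82 and 6.32 in B6. That of spermatid markers was 10.92 and 11.23 in PWD and 10.12 and 10.08 in B6. On the pachytene arrays these were 4.43 and 4.49 against 4.02 and 4.16, and 9.95 and 9.20 against 9.50 and 9.43. The part of such cells in the genes that depended on the strain was not tested either. Of 4111 autosomal genes with several probesets above the background level, 401 (9.75%) had probesets called in opposite directions, so that a change stands for the brightest probeset and not for every transcript of a gene.

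**Figure D5:**
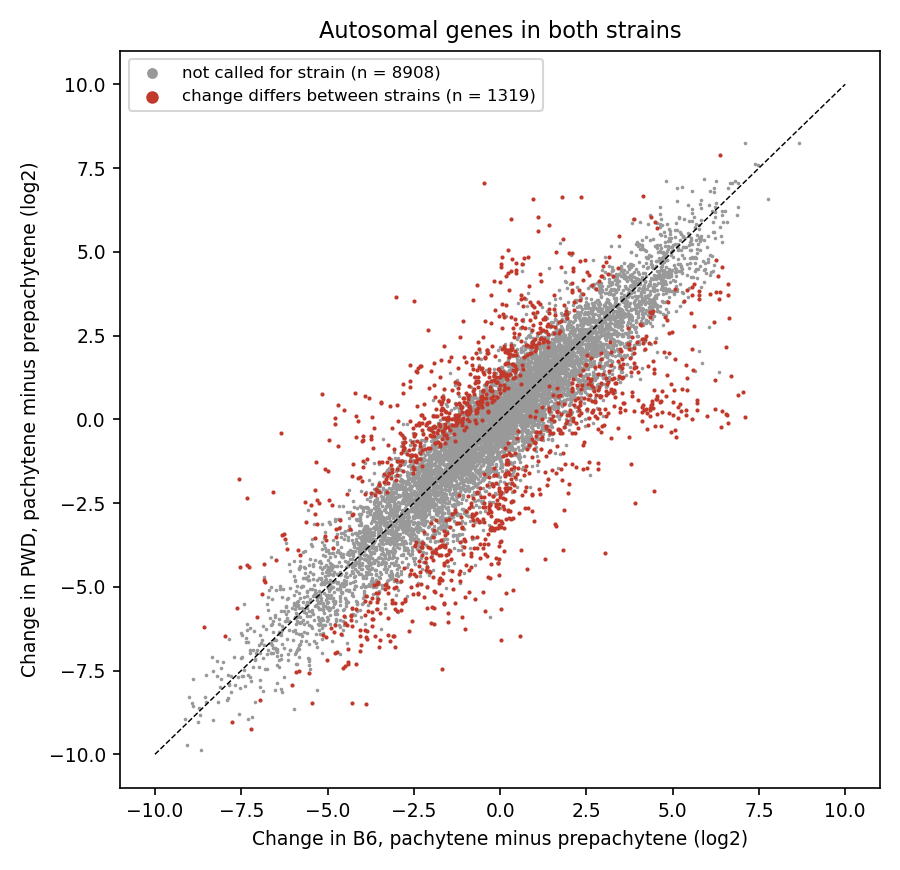
Change (pachytene minus prepachytene, log2) in PWD on the vertical axis against that in B6 on the horizontal axis, with 1 point for each of 10227 autosomal genes above the background level and the diagonal dashed. Red points mark the 1319 genes whose change depended on the strain.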

How the data were processed

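RNA of flow-sorted testicular populations was measured on 1-colour Affymetrix arrays of the mouse genome. The deposited values are log2 levels per probeset, and the submitters' processing notes name GCRMA, which corrects background by probe sequence and quantile-normalizes the arrays, whereas the study's methods name RMA and another array type, so that the exact steps are unsure. The deposited log2 values were used as given for 45037 probesets after 64 control probesets were dropped. Depth does not apply to arrays, and their number limits the precision. The replicate number was not used to pair samples in the main fit. Deviations of arrays with the same number correlated at -0.25 in PWD and -0.02 in B6. With 2 arrays in a group each value rests on 1 difference, so it cannot tell whether the numbers mark animals.

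A linear model with strain and population was fitted to 8 arrays with limma 3.58.1 in R 4.3.3 (empirical Bayes with an intensity trend), and p-values were adjusted by the Benjamini-Hochberg method over all probesets. Dependence on strain was the interaction among the 4 group means. Probesets were named from the platform annotation and updated through RefSeq: 34945 had 1 gene, 932 several and 9160 none, and only those with 1 gene were used. The requirement of a mean above 4.54 (95th percentile of probesets of other organs) was added after seeing the data, because 10928 of 25423 probesets below that level in both populations passed the adjusted p as higher. Lists were assembled from textbook roles and Reactome. The members and lists were chosen with earlier results of these data known. Named genes are, per list or part of a list, up to 4 with the largest changes among called genes whose populations did not overlap, the 12 in each direction with the smallest p among those with a change of at least 1 and both means above background, the 8 brightest above background on the arrays of 1 population alone, and up to 3 of each named pathway. Others are marked as chosen after their values were seen, or belong to a marker list or a pair. Promoters are RefSeq sequences of GRCm38.p6. Alternatives covered normalization, centring, filters, prior, threshold, a fold requirement, the replicate number as a block and each array left out. Scripts were tested on simulated data.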

Additional observations from a re-analysis of the deposited data

Results flagged for a closer look

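The change of 11 named genes depended on the strain (limma interaction, Benjamini-Hochberg adjusted p under 0.05), which held for 7.58% of autosomal genes. The difference is that of the change in PWD minus that in B6, on the log2 scale. *Aurkc* had a change of 6.65 in PWD and 4.15 in B6, a difference of 2.50 (adjusted p = 0.00957). *Gins4* changed by 3.30 in PWD and 1.56 in B6, a difference of 1.74 (0.0316), *Gins1* by 1.59 and 0.42, a difference of 1.17 (0.0469), and *Kif3b* by 3.74 and 2.41, a difference of 1.33 (0.0184). Among genes lower in pachytene, *Cs* changed by -1.23 in PWD and -2.97 in B6, a difference of 1.74 (0.0292), and *Slc25a31* by -0.38 and -1.64, a difference of 1.26 (0.0324). *Ctsl*, also a Sertoli marker, changed by -5.91 in PWD and -7.04 in B6, a difference of 1.13 (0.0249). *Prm2*, also a spermatid marker, changed by -4.96 in PWD and -3.64 in B6, a difference of -1.31 (0.0302). The differences were -1.25 for *Dicer1*, -1.82 for *Dnmt3a* and -2.85 for *Cul7*. For these 3 genes the pachytene levels lie below the background level, so that the difference rests on values at the floor. The groups of 2 arrays were too small for a search for outlying arrays.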

How the results depend on the processing

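Of the 7788 autosomal genes called, 6710 kept their call with the replicate number as a block, 7257 after quantile normalization again, 7281 after centring, 4603 when a change above 1 was required (limma's treat), 6243 at an adjusted p under 0.01 and 6937 to 7343 when 1 array was left out, and 0 were called in the opposite direction in any setting. Probesets higher in pachytene numbered 17219, and 7456 with the replicate block, 8686 with the numbers crossed in PWD (chosen after seeing the data), 11305 with 1 variance prior, 29425 after centring, 5884 among those above background only, 3359 with treat, 6003 at an adjusted p under 0.01 and 8826 to 19011 with 1 array left out, lowest without B6 prepachytene replicate 1 (8826) and likewise low without PWD pachytene replicates 1 and 2 (8967 and 9514) and PWD prepachytene replicates 1 and 2 (10187 and 11399). Probesets lower numbered 9337, and 5403 with treat (8162 to 8950 with 1 array left out). Autosomal genes called numbered 3683 higher and 4105 lower, and 2031 and 2572 with treat, 3115 and 3598 with the replicate block, 4268 and 3624 after quantile normalization again, 4570 and 3601 after centring, and 3290 to 3500 and 3664 to 3956 with 1 array left out. Without the background requirement 6902 were higher. Probesets whose change depended on the strain numbered 3424, and 5250 with 12 arrays, 1189 with the replicate block, 1360 with it crossed, 1108 at an adjusted p under 0.01 and 1743 to 5682 with 1 array left out (2162 and 1743 without B6 pachytene replicates 1 and 2, 5682 without PWD prepachytene replicate 1). The cause of these moves was not tested. Of the 222 genes named, *Acrv1* lost its call with the block and without any of 6 of the 8 arrays, and *Slc25a31* with the block and without B6 prepachytene replicate 1. *Wt1* lost it with the block, after both other scalings, with 1 variance prior and without any of 7 of the arrays. With treat 20 lost it. The median of 27 of 104 lists and parts of lists changed sign with another scaling. Arrays limit low levels: where every array of a population lies below 4.54 a change is given as a bound.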

Other observations

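Some lists were not described above. Of 18 writers and erasers of DNA methylation, 11 were above the background level, 3 were called higher and 4 lower. *Dnmt3a*, a de novo methyltransferase, was lower by at least 4.69 and *Dnmt3b*, also a spermatogonial marker, by at least 2.97, while *Trdmt1*, which methylates transfer RNA, was at 5.86 in pachytene and 11.20 in prepachytene (change -5.34). Among 128 ubiquitin ligases and their partners 33 were called higher and 45 lower, with *Ube2g1*, a conjugating enzyme, at 6.72 in pachytene and 12.43 in prepachytene (change -5.70) and *Cul7*, a cullin, lower by at least 4.03. Among 55 kinases 16 were higher (29.1%) and 17 lower (30.9%), but 19 and 16 after centring. *Stk39*, a kinase of ion transport, was at 12.19 in pachytene and 7.69 in prepachytene (change 4.50). Of 50 redox genes, a list whose median changed sign with the scaling, 18 were lower and 11 higher, and *Txn1*, thioredoxin, was at 3.48, 2.89, 2.75 and 2.86 in pachytene and at 10.73, 11.20, 9.94 and 9.60 in prepachytene, lower by at least 5.83.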
